A study of Homo sapiens with 9 samples.

Results

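The mRNAs described here code for the proteasome and for the factors that assemble it, activate it or inhibit it. All genes whose symbol is PSMA, PSMB, PSMC, PSMD, PSME, PSMF or PSMG followed by a number were taken from the count files, together with POMP and ADRM1, and pseudogenes were left out. This gave 50 of the 42785 genes in the files. Of these, 19 code for the core particle, 18 for the regulatory particle and 13 for accessory proteins. The RNA came from SH-SY5Y, an established human neuroblastoma line, grown in DMEM high glucose medium with FBS, and the labels name no treatment in any group. In DCC-IP, RNA was pulled down on beads with a mouse antibody to DCC, the receptor for Netrin-1. In Nrp1-IP, a rabbit antibody to Neuropilin-1 (Nrp1), a receptor for Sema3A, was used. Input is RNA of the whole lysate. Each group had 3 libraries, 9 in all. The lysates contained cycloheximide and nuclei had been spun out before the pulldown. The antibodies differed in host species as well as in target. The study reports that RNA came down with DCC and Nrp1 but not with control IgG on a gel. It also reports more ribosomal RNA with either receptor than with IgG by qPCR in these cells. No library of a control antibody is among the 9. For a given mRNA, RNA held by a receptor and RNA held by the beads or by an antibody as such thus cannot be told apart here. The study's methods say in general terms that experiments were done as independent biological replicates, and the labels do not say which cultures these libraries came from. The p-values measure the spread between these libraries.

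The proteasome degrades proteins that carry ubiquitin chains. Its core particle is a barrel of stacked rings, in which alpha subunits form the outer gates and beta subunits the inner chamber with the cutting sites. The regulatory particle caps the barrel. Its base holds a ring of ATPases (the PSMC genes) that unfold substrates, with scaffold and ubiquitin receptor subunits beside it, and its lid removes the ubiquitin through the deubiquitinase PSMD14. Subunits are needed in fixed proportions, and assembly depends on chaperones such as the PSMG proteins for the core and PSMD5, PSMD9 and PSMD10 for the base. In neurons the ubiquitin-proteasome system takes part in growth cone responses to guidance cues, in synapse remodelling and in protein turnover.

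The libraries held 8838296 to 11055895 gene counts, with a median of 10373001. Levels are given as CPM, which are counts scaled with TMM over the 9 libraries to a common library size. The floor of detection was set at 3 counts, which ranged from 0.208 CPM in DCC-IP replicate 3 to 0.387 CPM in Input replicate 1. The cDNA was amplified before sequencing and no molecular identifiers are described, so this floor covers counting error only. Genes took 29.2% to 31.3% of the reads. MAP1B, which codes for a microtubule-associated protein, took 40.3% to 52.1% of the counts of the DCC-IP libraries, 1.58% to 2.44% of those of Nrp1-IP and 1.87% to 2.25% of those of Input. Of 9 markers of noradrenergic neuroblastoma cells, 8 had counts in each group, and TH had none in any library. Their summed counts were 2166 to 3765 per library of Input, 10821 to 14931 per library of Nrp1-IP and 17856 to 35386 per library of DCC-IP, and the part of this difference in the results below was not tested. Of 5 fibroblast markers, 3 had counts, with sums of 8 to 68 per library, the 4 epithelial markers gave at most 12 counts in a library, and the 4 blood cell markers had none. These are bulk libraries, in which fewer cells of a kind and less RNA per cell cannot be told apart.

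Most proteasome mRNAs were thinly covered, as were most genes of any kind in these libraries. The filter on low counts described below kept 22 to 28 of the 50 genes in a comparison, and 6223 to 6501 of all 42785. Counts were found in all 9 libraries for 18 of the 50 genes, and 13 genes had at least 10 counts in every library: the core genes PSMA1, PSMA3, PSMA4, PSMA5, PSMA7 and PSMB4, the regulatory particle genes PSMD1, PSMD4, PSMD11, PSMD12 and PSMD14, and the accessory genes PSMG2 and PSMG3. No count was found for PSMA6, an alpha subunit, for PSMA8, the alpha subunit of testis, for the immunoproteasome subunits PSMB8, PSMB9 and PSMB10, or for PSMB11, the subunit of the thymus. Each of these 6 was thus under the floor of 3 counts in every library. Another 4 genes had fewer than 10 counts in all, namely the lid gene PSMD6 with 2, the base chaperone gene PSMD10 with 2, the core chaperone gene PSMG1 with 8 and POMP, the maturation factor of the core, with 3. PSMA6 is a subunit of the standard core particle, and POMP is needed for its assembly. At this depth and with this amplification their mRNAs were not detectable, or nearly so, which does not show that they were absent.

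**Figure D1:**
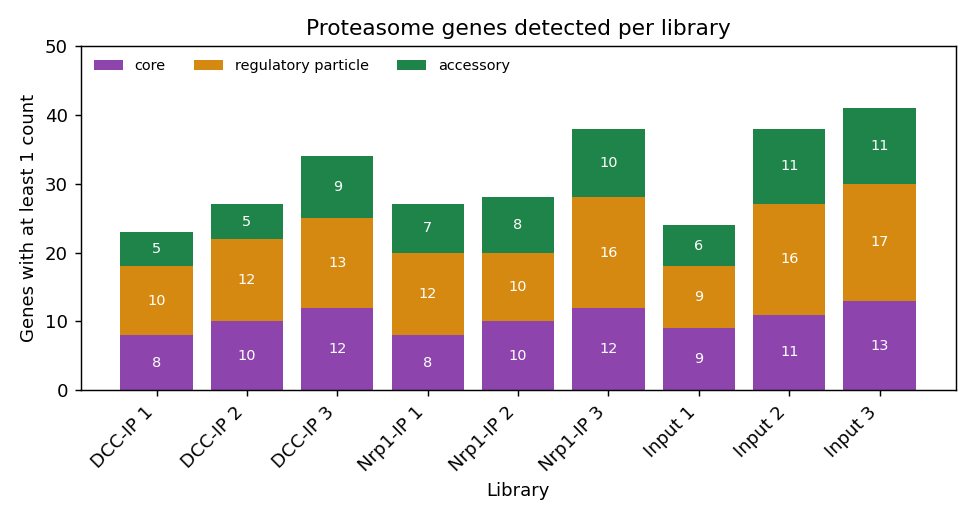
Number of the 50 proteasome genes with at least 1 count in each library (y axis), split into core, regulatory particle and accessory genes, with the number of each printed in its bar. Detection ran from 23 genes in DCC-IP replicate 1 to 41 in Input replicate 3, and replicate 3 was the highest library of each group.

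Within each group, more proteasome genes were detected in the libraries in which more genes of any kind were. In DCC-IP, 23, 27 and 34 proteasome genes had a count in replicates 1, 2 and 3, where 6652, 9036 and 11259 genes of any kind did. In Nrp1-IP the numbers were 27, 28 and 38 with 9389, 9787 and 12240 genes, and in Input 24, 38 and 41 with 8169, 11613 and 11937 genes. Replicate 3 was thus the richest library of every group. Of the 40 proteasome genes with at least 10 counts in all, 8 (20%) had their highest CPM in replicate 3 of all 3 groups, against 11.3% of the 12658 genes with that many counts. PSMD11, the lid subunit Rpn6, was named here after its values were seen. It had 29, 33 and 3005 counts in Input, 25, 41 and 565 in the Nrp1 pulldown and 34, 20 and 2070 in the DCC pulldown. The gene was low in replicates 1 and 2 of each group and high in replicate 3 of each, and the part of the library number in this was not tested.

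Across the 9 libraries, 3 genes held most of the reads. PSMG3, which codes for the core assembly chaperone PAC3, had 164145 counts, or 48.0% of all counts on proteasome genes. PSMD12, which codes for the lid subunit Rpn5, had 114140 (33.4%), and PSMB4, which codes for a beta subunit without a cutting site of its own, had 31321 (9.15%). Together they made up 309606 of 342208 counts (90.5%). Counts are not scaled to transcript length, so these are shares of reads and not of mRNA molecules. RefSeq lists 1 pseudogene each for PSMG3 and PSMD12 and none for PSMB4, and how the reads of such copies were assigned is not given in the sources used here. The files also list the antisense gene PSMG3-AS1, which had 115 counts in all. The strand setting of the counting is not given either, so the reads of PSMG3 and of its antisense partner cannot be told apart with certainty.

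Proteasome mRNAs as a whole took a smaller share of the gene counts in the pulldowns than in Input. The share was 0.616% ± 0.0805 (SD, n = 3) in Input, 0.295% ± 0.0196 in Nrp1-IP and 0.210% ± 0.0410 in DCC-IP, and the libraries of the 3 groups did not overlap. With MAP1B taken out of the total, the DCC-IP share was 0.397% ± 0.0365, above that of Nrp1-IP at 0.301% ± 0.0189 and below that of Input at 0.629% ± 0.0832, so the order of the pulldowns turned. The lower share than in Input lay in the 3 genes with most reads. The other 47 genes together took 0.0341% ± 0.0220 of the counts in Input, 0.0321% ± 0.00424 in Nrp1-IP and 0.0406% ± 0.0173 in DCC-IP. These ranges overlapped. Input replicates 1 and 2, at 0.0174% and 0.0258%, lay below every pulldown library (lowest 0.0279%), while Input replicate 3 was at 0.0590%. PSMD11 gave 3005 of the 5212 counts on the 47 genes in Input replicate 3 and 2070 of the 6278 in DCC-IP replicate 3. Without MAP1B, the DCC-IP share of the 47 genes was 0.0755% ± 0.0230. No test was made on the shares.

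**Figure D2:**
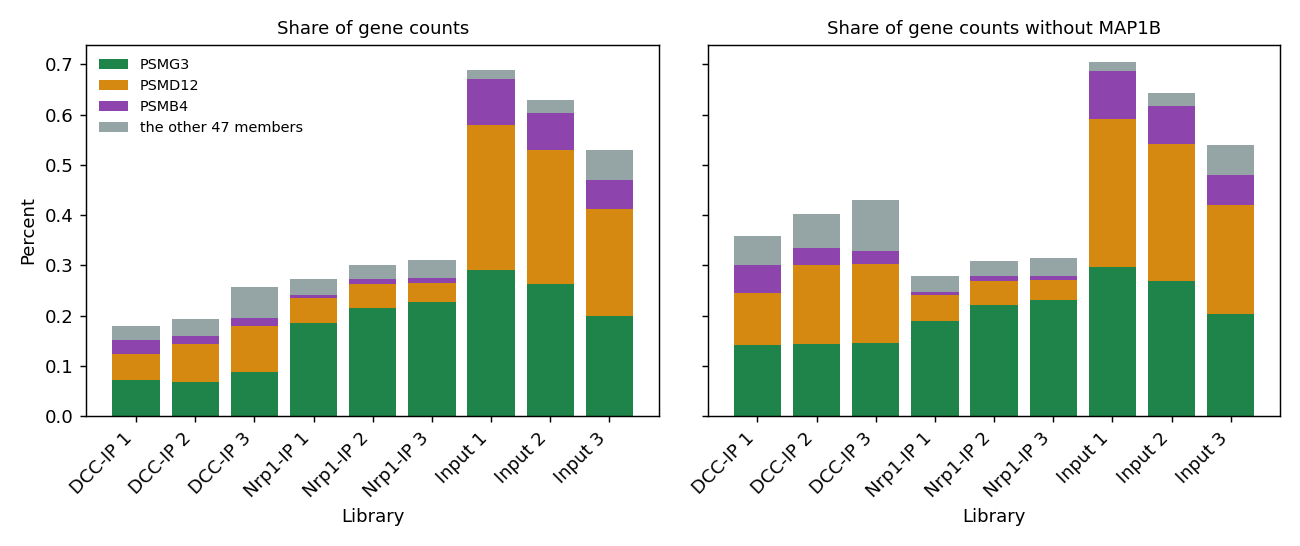
Percent of the gene counts of each library (y axis) taken by PSMG3, PSMD12, PSMB4 and the other 47 proteasome genes, with all gene counts (left) and with MAP1B removed from the total (right). The bars of Input reach 0.530% to 0.689% on the left, while those of DCC-IP end at 0.180% to 0.257% and those of Nrp1-IP at 0.273% to 0.311%.

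Differences between groups were tested with edgeR's quasi-likelihood test, fitted to all genes that passed the filter on low counts, and a gene was called where its p, adjusted after Benjamini-Hochberg, was under 0.05. The filter left 20 of the 50 genes in all 3 comparisons and 29 in at least 1, of which 10 were core, 12 regulatory particle and 7 accessory genes. The other 21 had too few counts to be tested in any comparison. The 3 comparisons share libraries and are not independent of each other. Fold changes below are log2 values with their SE. CPM values were scaled over the 9 libraries and each fit over its own 6, so a fitted fold change can depart slightly from the ratio of mean CPM.

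Between DCC-IP and Input, 28 proteasome genes were tested. PSMD12, PSMG3 and PSMB4 were called lower in DCC-IP (3 genes, where 3.52% of all 6223 genes tested were called lower). None was called higher by edgeR, where 1.46% of all genes were, while 3 genes (PSMA4, PSMD1 and PSMC6) had an unadjusted p under 0.05 in that direction, against 10.8% of all genes, and DESeq2 called the same 3 higher, against 10.5% of all genes to which it gave an adjusted p. At an unadjusted p under 0.05, 4 were lower in DCC-IP, against 11.1% of all genes, and DESeq2 called 5 lower, against 10.7%, adding PSMF1 and ADRM1 to the calls of edgeR. When the fit took libraries of the same number as a block, 4 genes were called lower, PSMF1 being added, and none higher, where 7.67% and 3.82% of all genes were called. The CPM values of the groups did not overlap for 5 genes that were higher in DCC-IP and for 5 that were lower, against 15.2% and 18.2% of all genes. The median fold change was 0.11 over the 28 genes, 0.28 over 10 core genes, -0.20 over 11 regulatory particle genes and 0.85 over 7 accessory genes, beside 0.16 over all genes tested.

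Between Nrp1-IP and Input, 26 proteasome genes were tested. PSMB4 and PSMD12 were called lower in Nrp1-IP and PSMB2, which codes for a beta subunit, was called higher, where 3.03% and 1.94% of all 6501 genes were called. DESeq2 called 4 lower (PSMF1 and ADRM1 being added) and PSMB2 higher, against 10.2% and 6.46% of all genes. Groups did not overlap for 5 genes that were higher and 6 that were lower, against 17.7% and 13.8% of all genes. The median fold change was -0.25 over the 26 genes, 0.41 over 8 core genes, -0.88 over 11 regulatory particle genes and -0.27 over 7 accessory genes, beside 0.06 over all genes.

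Between the pulldowns, 22 proteasome genes were tested, and PSMG3 was called higher in Nrp1-IP than in DCC-IP, where 2.56% of all 6439 genes were. No gene was called lower by edgeR, where 1.09% of all genes were, while 5 had an unadjusted p under 0.05 in that direction, against 9.49% of all genes, and DESeq2 called 1 (PSMC6), against 6.14%. At an unadjusted p under 0.05, 2 were higher, against 7.87% of all genes, and DESeq2 called these 2 higher (PSMG3 and PSMF1), against 7.65%. Groups did not overlap for 3 genes that were higher in Nrp1-IP and for 7 that were lower, against 15.6% and 10.9% of all genes. Of the 7, 5 were regulatory particle genes (PSMC3, PSMC6, PSMD1, PSMD12 and PSMD14) and 2 were core genes (PSMA4 and PSMB4). The fold change was negative for 7 of 9 regulatory particle genes, 5 of 7 core genes and 4 of 6 accessory genes, and for 57.4% of all genes. The median was -1.18 for the regulatory particle, -0.29 for the core and -0.14 for the accessory genes, beside -0.27 over all genes. The order of core and regulatory particle turned in 3 alternative fits, with medians of -0.88 and -0.48 without a filter, -0.91 and -0.71 in the fit of all 9 libraries, and -1.26 and -0.92 without Nrp1-IP replicate 2. In every alternative the regulatory particle median was nearer to 0 than -1.18, from -1.12 to -0.48, and it was -0.49 without DCC-IP replicate 3. The median over all genes moved to -0.02 when MAP1B was left out of the counts before scaling and to -0.10 with library size as the only scaling.

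**Figure D3:**
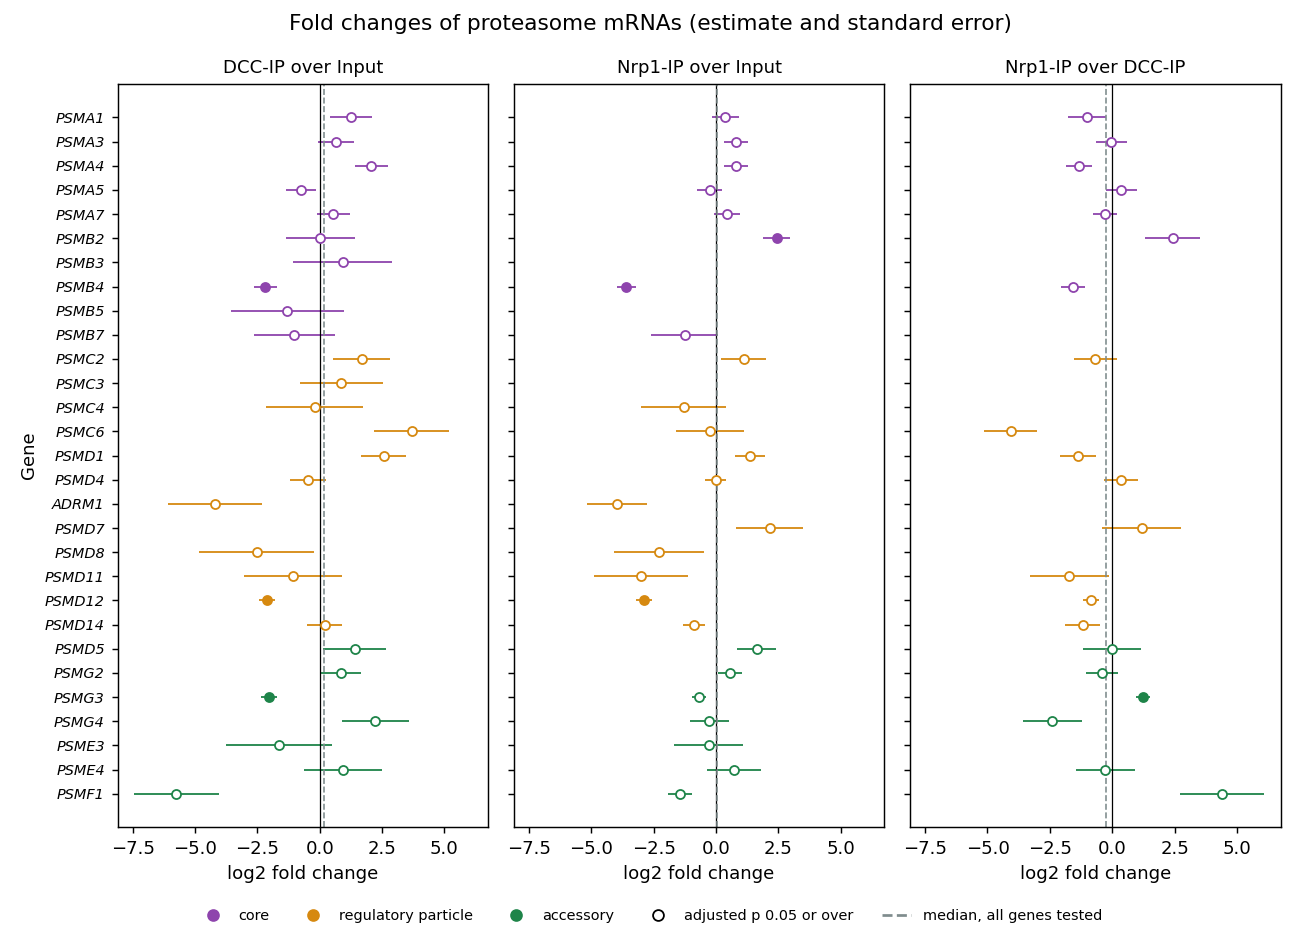
Log2 fold change (x axis) of each tested proteasome gene in the 3 comparisons, with bars for 1 SE, by edgeR's quasi-likelihood fit. Filled points had an adjusted p under 0.05, open points did not, the dashed line is the median of all genes tested, and PSMC3 is left out between the pulldowns because Nrp1-IP holds 3 counts of it. PSMD12 and PSMB4 lie to the left of 0 in all 3 panels, while PSMG3 lies to the left against Input and to the right between the pulldowns.

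The alpha ring of the core was represented by 5 tested genes. With the DCC antibody PSMA4 had 352, 538 and 571 counts, with the Nrp1 antibody 210, 206 and 211, and Input had 89, 58 and 109. Mean levels were thus 40.9 ± 1.97, 18.2 ± 2.02 and 10.7 ± 3.46 CPM (SD, n = 3 each). The 3 groups did not overlap, with DCC-IP the highest and Input the lowest. Its fold change of DCC-IP over Input was 2.07 ± 0.66 with an adjusted p of 0.105 in edgeR, and that between the pulldowns was -1.33 ± 0.53 (adjusted p = 0.228 in edgeR), so neither passed. In alternative fits PSMA4 passed over Input with DESeq2 (adjusted p = 0.0191). It also passed there in edgeR with at least 10 counts in every library (0.0180) and in the fit of all 9 libraries (0.0480). PSMA5, the alpha gene with the most counts, had 355 to 943 counts with the Nrp1 antibody, 270 to 600 with the DCC antibody and 365 to 634 in Input, and the groups overlapped. PSMA1 had 33 to 54 counts in Input, against 96 to 162 for DCC-IP and 62 to 94 for Nrp1-IP. In CPM, DCC-IP lay above Input for PSMA1 without passing the test (1.27 ± 0.84, adjusted p = 0.442 in edgeR). Nrp1-IP overlapped with both other groups in CPM. PSMA3 and PSMA7 overlapped in all 3 comparisons, with mean levels of 31.8 to 51.5 CPM and 37.8 to 51.7 CPM. PSMA2 had counts only in replicate 3 of each group, with 7 for Input, 8 for Nrp1-IP and 17 for DCC-IP.

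In the beta ring, PSMB4 fell in both pulldowns and PSMB2 rose in Nrp1-IP. PSMB4 had 1280, 878 and 640 CPM in Input, 60.4, 89.5 and 69.5 in the Nrp1 pulldown and 348, 141 and 113 in the DCC pulldown. No library of one group overlapped another group, and Input was the highest and Nrp1-IP the lowest. The fold change was -2.18 ± 0.46 for DCC-IP over Input (adjusted p = 0.0339 in edgeR) and -3.60 ± 0.38 for Nrp1-IP over Input (adjusted p = 0.0063 in edgeR). Between the pulldowns it was -1.56 ± 0.48, which did not pass (adjusted p = 0.127 in edgeR).

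PSMB2, by contrast, had 120, 94 and 139 counts in Nrp1-IP, 11, 3 and 54 in DCC-IP and 11, 19 and 18 in Input. All Nrp1-IP libraries were above all others, while DCC-IP and Input overlapped. In mean CPM (± SD, n = 3 each) this was 10.1 ± 1.32 for Nrp1-IP, 1.74 ± 1.81 for DCC-IP and 1.99 ± 0.49 for Input. The fold change of Nrp1-IP over Input was 2.43 ± 0.54 (adjusted p = 0.0470 in edgeR), close to the threshold. It lost the call with each of the 6 libraries left out in turn, with adjusted p between 0.0760 and 0.227 in edgeR. Over DCC-IP it was 2.42 ± 1.10, which did not pass (adjusted p = 0.298 in edgeR). The genes of the cutting sites, PSMB5, PSMB6 and PSMB7, had at most 52, 20 and 21 counts in a library, and PSMB1 and PSMB3 at most 38 each. PSMB6 was counted in Input replicate 3 alone.

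The ATPase genes of the base had low counts, and under the filter edgeR called none in any comparison, while DESeq2 called PSMC6. PSMC6 had 8, 8 and 16 counts with the Nrp1 antibody, 271, 48 and 137 with the DCC antibody and 0, 10 and 17 in Input. DCC-IP was above every other library, and Nrp1-IP and Input overlapped. The mean was 1.11 ± 1.07 CPM in Input, against 14.7 ± 14.1 for DCC-IP and 0.897 ± 0.266 for Nrp1-IP (SD, n = 3 each). Between the pulldowns PSMC6 had a fold change of -4.07 ± 1.05 (adjusted p = 0.0709 in edgeR), and that of DCC-IP over Input was 3.69 ± 1.50 (adjusted p = 0.193 in edgeR). DESeq2 called both (adjusted p = 0.000531 and 0.0224), and edgeR without a filter called the first (adjusted p = 0.0466).

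PSMC3 had 0, 3 and 23 counts in Input, 3, 0 and 0 in the Nrp1 pulldown and 12, 19 and 35 in the DCC pulldown. The pulldowns did not overlap, and the adjusted p between them was 0.255 in edgeR. No fold is given, since Nrp1-IP held 3 counts in all. PSMC1 was too low to be tested and had 0, 0 and 2 counts with the Nrp1 antibody, 7, 12 and 18 with the DCC antibody and 0, 0 and 5 in Input. PSMC2, the ATPase gene with the most counts, had 3, 29 and 31 counts in Input, against 57, 88 and 130 for DCC-IP and 29, 62 and 97 for Nrp1-IP. In CPM, DCC-IP lay above Input for PSMC2 with a fold change of 1.68 ± 1.15 (adjusted p = 0.459 in edgeR), and the pulldowns overlapped.

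Mean CPM was highest in DCC-IP for PSMC6, PSMC3, PSMC1 and PSMC2, although PSMC3 overlapped between DCC-IP and Input, and highest in Input for PSMC4 and PSMC5. PSMC4 overlapped in all comparisons, with at most 27 counts in a library. PSMC5 had 0, 7 and 41 counts in Input, 0, 0 and 3 in the Nrp1 pulldown and none in the DCC pulldown. The fold change was negative for all 3 ATPase genes tested between the pulldowns, as for 57.4% of all genes. It was positive for 3 of the 4 tested between DCC-IP and Input, as for 52.9% of all genes. At an unadjusted p under 0.05 in edgeR, 2 were lower in Nrp1-IP than in DCC-IP, against 9.49% of all genes. Between DCC-IP and Input 1 was higher at that threshold, against 10.8%.

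Of the other base genes, PSMD1, which codes for the scaffold Rpn2, was ordered as PSMA4 was. It had 4.91, 3.23 and 1.64 CPM in Input, 7.02, 9.41 and 7.30 in the Nrp1 pulldown and 32.6, 13.1 and 10.8 in the DCC pulldown. The groups did not overlap. The fold change of DCC-IP over Input was 2.56 ± 0.89 (adjusted p = 0.133 in edgeR), that of Nrp1-IP over Input 1.36 ± 0.61 (adjusted p = 0.245 in edgeR), and neither passed. In alternative fits PSMD1 passed in DCC-IP over Input with DESeq2 (adjusted p = 0.0228) and in edgeR with at least 10 counts in every library (0.0165).

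ADRM1 and PSMD2 were highest in Input. ADRM1, which codes for the ubiquitin receptor Rpn13, had 30, 180 and 65 counts in Input, 0, 0 and 21 in DCC-IP, and 8, 0 and 15 in Nrp1-IP. Input was above all pulldown libraries, with fold changes of -4.19 ± 1.89 for DCC-IP (adjusted p = 0.238 in edgeR) and -3.97 ± 1.20 for Nrp1-IP (adjusted p = 0.102 in edgeR). DESeq2 called ADRM1 lower in both (adjusted p = 0.0246 and 0.00214), and edgeR without a filter called it in Nrp1-IP over Input (adjusted p = 0.0012). All 21 counts of DCC-IP came from replicate 3, and without that library the adjusted p was 0.0579 in edgeR, with no fold given since the other DCC-IP libraries held no count. PSMD2, the scaffold Rpn1, had 2, 14 and 37 counts in Input and none in any of the 6 pulldown libraries, and was not tested under the filter, while edgeR without a filter called it lower in Nrp1-IP than in Input. PSMD4, which codes for the ubiquitin receptor Rpn10 and had the most counts of the base genes other than ATPases, had 146 to 220 counts with the Nrp1 antibody, 92 to 145 with the DCC antibody and 117 to 150 in Input, and the groups overlapped in CPM.

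In the lid, PSMD12 fell in both pulldowns. It had 3972, 3209 and 2376 CPM in Input, against 647, 670 and 672 for DCC-IP and 452, 446 and 321 for Nrp1-IP. The groups did not overlap, with Input the highest and Nrp1-IP the lowest, and the DCC-IP libraries lay close together (663 ± 14.0, SD, n = 3). The fold change was -2.12 ± 0.33 for DCC-IP over Input (adjusted p = 0.0112 in edgeR) and -2.89 ± 0.31 for Nrp1-IP over Input (adjusted p = 0.0063 in edgeR). Between the pulldowns it was -0.87 ± 0.32, which did not pass (adjusted p = 0.191 in edgeR).

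PSMD14, the deubiquitinase, had 15.2, 14.7 and 15.9 CPM in Input, 8.52, 9.13 and 6.02 in the Nrp1 pulldown and 12.6, 19.6 and 15.1 in the DCC pulldown. Nrp1-IP was below both other groups, which overlapped, and no comparison passed (lowest adjusted p = 0.306 in edgeR). PSMD7 had 20, 21 and 15 counts in Nrp1-IP, 0, 4 and 23 in DCC-IP and 0, 2 and 7 in Input. PSMD3, PSMD8 and PSMD13 had 92, 195 and 59 counts in all, and each overlapped in all comparisons. Among the 8 lid genes whose symbols match the rule, 5 were tested in at least 1 comparison, and PSMD12 was the gene called. Without a filter, edgeR also called PSMD11 lower in Nrp1-IP than in Input.

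**Figure D4:**
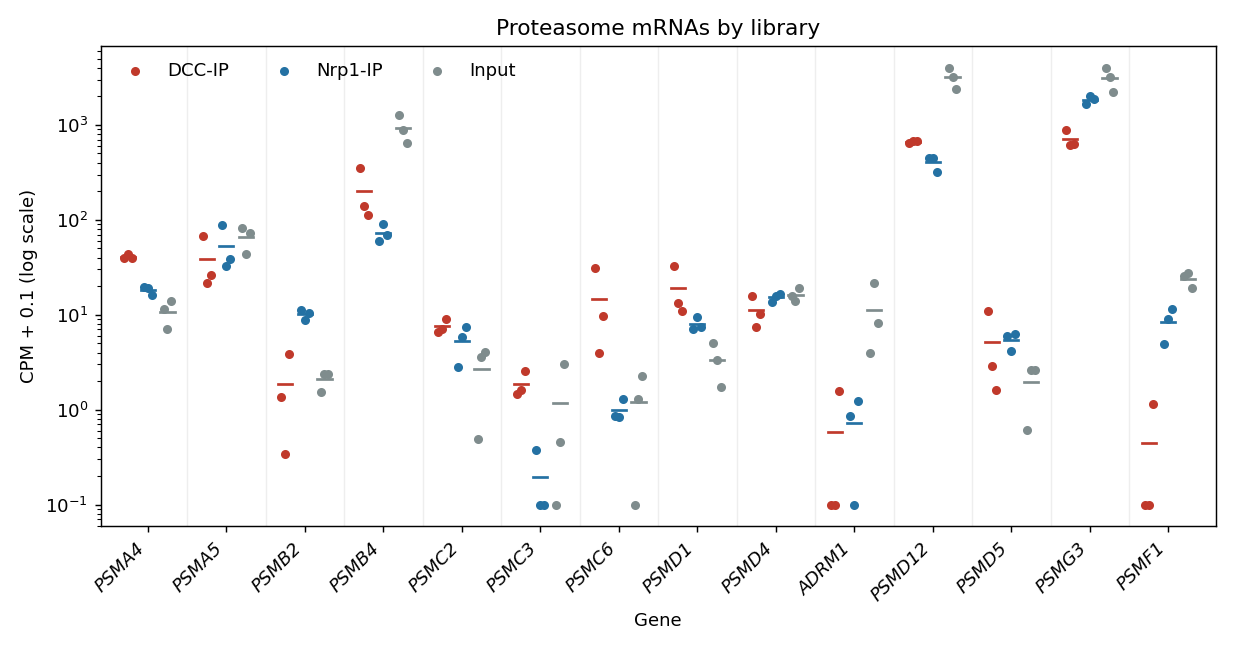
CPM plus 0.1 on a log axis (y axis) of 14 proteasome genes in each library, by group, with a bar at the group mean; values at the bottom are libraries with no count. PSMD12, PSMB4 and PSMG3 are highest in Input, PSMA4, PSMC6 and PSMD1 in DCC-IP, and PSMB2 in Nrp1-IP.

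Among the accessory genes, PSMG3 fell in DCC-IP. It had 1680, 1999 and 1869 CPM with the Nrp1 antibody, 893, 611 and 627 with the DCC antibody and 3999, 3171 and 2226 in Input. The groups did not overlap, with Nrp1-IP between DCC-IP and Input. The fold change of DCC-IP over Input was -2.04 ± 0.32 (adjusted p = 0.0122 in edgeR), and that from DCC-IP to Nrp1-IP was 1.24 ± 0.28 (adjusted p = 0.0464 in edgeR). Over Input, the fold change of Nrp1-IP was -0.68 ± 0.27, which did not pass (adjusted p = 0.199 in edgeR).

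The other core chaperone genes were far lower in counts. PSMG2 had 43 to 272 counts in a library, and its groups overlapped in all comparisons. PSMG4 ranged from 9 to 533 counts within DCC-IP, from 26 to 43 in Nrp1-IP and from 12 to 58 in Input. Among the base chaperone genes, PSMD5 had 4, 21 and 20 counts in Input, against 96, 35 and 22 for DCC-IP and 62, 44 and 83 for Nrp1-IP, and Nrp1-IP was above Input without passing the test (1.63 ± 0.77, adjusted p = 0.271 in edgeR). The antisense gene PSMD5-AS1 had 255 counts, beside 387 for PSMD5, and the reads of the pair cannot be told apart for the reason given for PSMG3. PSMD9 had at most 12 counts in a library.

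PSMF1 codes for PI31, a protein that binds the core and was first described as its inhibitor. It had 197, 229 and 152 counts in Input and 51, 97 and 151 in Nrp1-IP, but 0, 0 and 15 in DCC-IP. In CPM the groups did not overlap (24.0 ± 4.30 in Input, 8.36 ± 3.33 in Nrp1-IP and 0.347 ± 0.601 in DCC-IP, SD, n = 3 each). The fold change of DCC-IP over Input was -5.74 ± 1.69 (adjusted p = 0.0882 in edgeR), and with the replicate number as a block it was -7.37 ± 1.89 and passed (adjusted p = 0.0488 in edgeR). It also passed with DESeq2 (adjusted p = 0.000118), and in edgeR without a filter (0.008), in the fit of all 9 libraries (0.0217) and without both libraries numbered 3 (0.0322). The fold rests on the 15 counts of DCC-IP replicate 3. Without that library the other DCC-IP libraries held no count, so that no fold is given, and PSMF1 was called against Input (adjusted p = 0.0305 in edgeR) and against Nrp1-IP (0.0329). Between the pulldowns the fold change of PSMF1 with all libraries was 4.39 ± 1.68 (adjusted p = 0.213 in edgeR and 0.0206 in DESeq2) and that of Nrp1-IP over Input -1.43 ± 0.48 (adjusted p = 0.130 in edgeR and 0.0111 in DESeq2). The alternative caps of the core were little covered. PSME1 and PSME2, the subunits of the activator PA28 of immune cells, had 21 and 15 counts in all, PSME3, the nuclear form, had 79, and PSME4, the activator PA200, had 1 to 106 counts in a library with overlapping groups.

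The calls against Input depended on the scaling and on single libraries. When MAP1B was left out before scaling, no proteasome gene was called between DCC-IP and Input by edgeR, with adjusted p of 0.0542 for PSMD12, 0.0712 for PSMG3 and 0.123 for PSMB4, at fold changes of -1.89, -1.74 and -1.79, and 47 genes of any kind were called lower in place of 219. The call of PSMB4 was also lost with RLE size factors (adjusted p = 0.0700 in edgeR) and without a filter (0.0867). Leaving out Input replicate 3 kept these 3 calls, and leaving out Input replicate 2 kept that of PSMD12 (adjusted p = 0.0468). All 3 were lost without DCC-IP replicate 1, 2 or 3 or Input replicate 1, and those of PSMG3 and PSMB4 also without Input replicate 2. The adjusted p in edgeR was then 0.0662 to 0.150 for PSMD12, 0.0524 to 0.204 for PSMG3 and 0.0923 to 0.297 for PSMB4, at fold changes of -2.03 to -1.86, -2.13 to -1.61 and -2.67 to -1.46. These fits lost calls of genes of any kind as well, with 0 lower without DCC-IP replicate 1 or 2, 67 without DCC-IP replicate 3, and 30 and 82 without Input replicate 1 and 2. In the comparison of Nrp1-IP with Input, the calls of PSMB4 and PSMD12 held without any 1 Input library and were lost without Nrp1-IP replicate 1 (adjusted p = 0.0995 for both), replicate 2 (0.0898 and 0.0931) or replicate 3 (0.0648 for both), at fold changes of -3.77 to -3.49 for PSMB4 and -2.98 to -2.75 for PSMD12. Without Nrp1-IP replicate 1, 2 or 3, edgeR called 0, 7 and 7 genes of any kind lower, in place of 197, and 0 higher in each, in place of 126. The call of PSMG3 between the pulldowns held without DCC-IP replicate 1 or 3 and was lost without DCC-IP replicate 2 (adjusted p = 0.119) or Nrp1-IP replicate 1 (0.254), 2 (0.316) or 3 (0.204), where 130, 69, 67 and 98 genes of any kind were called higher in place of 165. The sign of these fold changes was the same in every one of these fits.

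Beyond the proteasome itself, 31 genes of the ubiquitin-proteasome system were examined, which cover proteins bound to the proteasome, the factors that transcribe its genes, ubiquitin shuttles, the segregase VCP with its cofactors, and ubiquitin genes. Between the pulldowns none of 14 tested was called in edgeR, with 2 higher and 1 lower at an unadjusted p under 0.05 (7.87% and 9.49% of all genes) and a median fold change of -0.66, while DESeq2 called 1 higher (TXNL1) and 0 lower (7.65% and 6.14% of all genes). Between DCC-IP and Input none of 13 was called in edgeR, with 2 higher and 1 lower at an unadjusted p under 0.05 (10.8% and 11.1% of all genes) and a median of -0.07, while DESeq2 called SHFM1 higher and TXNL1 lower (10.5% and 10.7% of all genes). Between Nrp1-IP and Input, RPS27A, which codes for ubiquitin fused to a ribosomal protein, was called lower and none of the 15 tested was called higher in edgeR, with a median of 0.08. At an unadjusted p under 0.05, 0 were higher and 2 lower (11.5% and 10.1% of all genes), and DESeq2 called 0 higher and 2 lower, AKIRIN2 and RPS27A (6.46% and 10.2% of all genes).

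With the replicate number as a block, TXNL1, which codes for a thioredoxin-like protein of the regulatory particle, was called lower in DCC-IP than in Input (-2.38, adjusted p = 0.0244 in edgeR).

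RPS27A had 4.87, 3.97 and 4.89 CPM in Nrp1-IP, 8.38, 16.4 and 8.19 in DCC-IP, and 26.9, 25.4 and 25.2 in Input. The groups did not overlap. The fold change of Nrp1-IP over Input was -2.42 ± 0.43 (adjusted p = 0.0259 in edgeR), and the call held without Input replicate 3 (0.0165) and was lost without Input replicate 1 (0.0578) or 2 (0.0529) or without Nrp1-IP replicate 1 (0.157), 2 (0.185) or 3 (0.124). NFE2L1, which codes for the factor that raises proteasome gene transcription when the proteasome is inhibited, had 25 counts in all, of which 22 were in Nrp1-IP replicate 3, and was not tested.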

How the data were processed

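RNA from DCC-IP, Nrp1-IP and Input was sequenced in 3 libraries each. The authors deposited raw counts for 42785 gene symbols, with no normalization, which they made by alignment in HISAT2 2.1.0 and counting in HTSeq 0.11.0. The submitters' processing notes name hg19. Annotation, strand setting and the handling of the reads of pseudogenes are not given in the sources used here. The 5 summary lines of HTSeq (68.7% to 70.8% of a library's reads) stayed out of library sizes and tests.

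Groups of 3 libraries were taken from the sample titles. Pairs of groups were compared on their 6 libraries in edgeR 4.0.16 (R 4.3.3) with filterByExpr (minimum count 10), TMM, glmQLFit and glmQLFTest, at a Benjamini-Hochberg adjusted p under 0.05 over all genes tested. SE is the size of the log2 fold change divided by the square root of F. The scripts were tested on simulated data. Alternatives were DESeq2 1.42.0, RLE size factors, library size only, MAP1B left out, 2 other filters, 1 fit of all 9 libraries, the replicate number as a block, and each library left out. Leaving out both libraries numbered 3 was added after the data were seen.

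Deviations from the group means over 7628 genes correlated between same-numbered libraries of DCC-IP and Input (r = 0.117, 0.187 and 0.421). Unlike-numbered libraries of these groups gave r from -0.310 to 0.136, the latter above that of number 1. The numbers thus pair these libraries by the data only in part. The labels do not say what a number stands for.

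The genes, the list of partners and the markers were chosen with earlier results of these data known. Named in full are genes with an adjusted p under 0.05 in any comparison or, since these were few, an unadjusted p under 0.05. Also named are the gene with the most counts in each role, those with fewer than 10 counts in all, and called partners with NFE2L1. Of the partners, 1 gene is not reported here. Gene symbols and pseudogenes were looked up in RefSeq (GRCh38.p14), which holds all 50. Figures were drawn with matplotlib 3.10.9.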

Additional observations from a re-analysis of the deposited data

Results flagged for a closer look

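PSMG3, the core chaperone gene, differed between the receptors in its ratio of pulldown over Input. It was 1.24 ± 0.28 higher on the log2 scale in Nrp1-IP than in DCC-IP (adjusted p = 0.0464 in edgeR), and higher in 3 of 3 Nrp1-IP libraries than in any DCC-IP library. Since the same Input libraries stand under both ratios, this test is the comparison of the pulldowns themselves and adds no evidence to it. The groups of 3 libraries are too small for a test of single outlying libraries.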

How the results depend on the processing

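The limits are few libraries with wide spread and low counts, so that 21 of 50 genes were not tested and a missed threshold does not show equal levels. With TMM, the median fold change of all genes was -0.27 between the pulldowns, 0.16 for DCC-IP over Input and 0.06 for Nrp1-IP over Input, and with library size only it was -0.10, 0.48 and 0.44, so small fold changes depend on the scaling. Causes of the changes below were not tested.

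With DESeq2, the proteasome genes called were 2 higher and 1 lower between the pulldowns, 3 and 5 for DCC-IP over Input, and 1 and 4 for Nrp1-IP over Input, beside 386 and 310, 511 and 521, and 374 and 588 genes of any kind. Without a filter, 1 was called lower between the pulldowns, beside 176 of 15766 genes of any kind. For Nrp1-IP over Input that fit called 0 higher and 5 lower, beside 238 and 644 of 16456. With at least 10 counts in every library, 2 were called higher in DCC-IP than Input, beside 468 of 2634 genes of any kind. In 1 fit of all 9 libraries, 1 was called higher there, beside 285 of 7628. That fit called 0 higher in Nrp1-IP than Input, as did RLE size factors, beside 22 and 85 genes of any kind. With MAP1B left out, 0 were called lower in DCC-IP than Input, beside 47 genes of any kind. Without both libraries numbered 3, 0 were called higher between the pulldowns and 0 in Nrp1-IP over Input, beside 27 and 57 genes of any kind.

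The replicate number as a block left 0 genes called higher in Nrp1-IP than Input, PSMB2 being lost at an adjusted p of 0.0655 in edgeR, and changed no other call of a proteasome gene than this and PSMF1. Same-numbered deviations correlated at 0.0989, 0.113 and 0.361 between the pulldowns, where unlike-numbered libraries gave r from -0.208 to 0.0986. Each same-numbered value there was thus above every unlike-numbered one, though by little for number 1. Between Nrp1-IP and Input they correlated at 0.215, -0.0043 and 0.364, beside -0.370 to 0.168 for unlike numbers. The main fits took no block in any comparison. In the fits with the block, 266 genes of any kind were called higher and 103 lower between the pulldowns (165 and 70 without it), 238 and 477 for DCC-IP over Input (91 and 219), and 239 and 317 for Nrp1-IP over Input (126 and 197).

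Leaving out 1 library at a time gave 0 to 2 proteasome genes called higher between the pulldowns, 0 to 3 lower in DCC-IP than Input, and 0 higher and 0 to 3 lower in Nrp1-IP than Input. Over genes of any kind these fits called 67 to 290 higher and 5 to 70 lower between the pulldowns, 0 to 139 and 0 to 214 for DCC-IP over Input, and 0 to 111 and 0 to 330 for Nrp1-IP over Input. Medians of the core genes then ranged from -1.26 to -0.0082, -0.30 to 0.67 and -0.12 to 0.42 in the order given above, and those of the regulatory particle genes from -1.12 to -0.49, -0.67 to 1.22 and -0.98 to -0.016.

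For Nrp1-IP over DCC-IP the core median moved to -0.88 without a filter and -0.91 in the fit of all 9 libraries. That of the regulatory particle moved to -1.02 with DESeq2, -1.01 with RLE, -1.004 with library size only, -0.90 without MAP1B, -0.48 without a filter, -0.83 with 10 counts in every library, -0.71 with all 9 libraries, -0.88 with the block and -0.68 without both libraries numbered 3. For DCC-IP over Input the core median moved to 0.85 without MAP1B and 0.88 with 10 counts in every library, and the regulatory particle median to 0.58 without both libraries numbered 3. For Nrp1-IP over Input the core median moved to 0.20 with DESeq2 and with RLE, 0.73 with library size only, -0.35 without a filter and -0.24 with all 9 libraries, and the regulatory particle median to -1.71 without a filter. Without MAP1B in the total, the DCC-IP shares moved from 0.210% to 0.397% for all genes, from 0.0408% to 0.0784% for the core and from 0.0883% to 0.165% for the regulatory particle.

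Signs turned for fold changes near 0 or of genes with few counts. PSMB2 in DCC-IP over Input (0.02) became -0.19 with DESeq2 and with RLE, -0.18 with all 9 libraries, -0.65 with the block and -1.41 without both libraries numbered 3, and ranged from -0.91 to 0.67 with 1 library left out. PSMC6 in Nrp1-IP over Input (-0.24) became 0.085 with library size only and 0.45 with the block (range -0.90 to 0.52). PSMD4 in that comparison (-0.01) became 0.38 and 0.0099 (range -0.19 to 0.059), and PSMA5 (-0.26) became 0.15 with library size only. PSMD4 in DCC-IP over Input ranged from -0.68 to 0.11, and PSMA5 between the pulldowns from -0.13 to 1.18. PSMD5 between the pulldowns was within 0.01 of 0 and became 0.089 with DESeq2, 0.086 with RLE, 0.087 with all 9 libraries, 0.39 with library size only, 0.36 without MAP1B, 0.12 without a filter, 0.37 with 10 counts in every library and 0.38 with the block (range -0.23 to 1.34). Over the genes named, 533 alternative values kept their sign and side of the threshold, 21 newly passed it, 47 no longer passed and 27 changed sign.

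Calls over all genes ranged, over the fits other than leaving out 1 library, from 27 to 386 higher and 4 to 310 lower between the pulldowns, 26 to 511 and 47 to 521 for DCC-IP over Input, and 22 to 374 and 103 to 644 for Nrp1-IP over Input. With library size only the splits were 209 and 45, 141 and 167, and 351 and 167, with RLE 191 and 45, 44 and 169, and 85 and 265, and without MAP1B 232 and 41 between the pulldowns.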

Other observations

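The files list antisense genes beside 3 of the proteasome genes. PSMD6-AS2 had 814 counts in all, from 10 to 149 in DCC-IP, 99 to 176 in Nrp1-IP and 13 to 84 in Input, while PSMD6 itself had 2. Of the 22 proteasome genes for which RefSeq lists at least 1 pseudogene, 3 had fewer than 10 counts in all, and so had 7 of the 28 with none. The median was 145 counts with a pseudogene and 90.5 without, and no test was made.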
